A study of Homo sapiens with 24 samples.

Results

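Thymidylate synthase and 8 genes around it were followed through whole transcriptome sequencing of ovarian cancer cells exposed to 5-FdU-Ecyd, a conjugate of 5-fluoro-2'-deoxyuridine (FdU) and ethynylcytidine (Ecyd). The 9 genes were chosen by symbol, as the enzyme that the FdU moiety of the drug is directed against and its pathway. No rule on their measured values was applied, but earlier results of these data were known when they were chosen. They are 9 of the 63299 genes in the count table, and all 9 were among the 20240 genes with enough counts to be tested. The libraries were made from A2780, labelled platinum-sensitive, and from its isogenic derivative A2780cis, labelled platinum-resistant, which received 1 µM cisplatin for a passage at intervals to keep that trait. Cells of both lines were kept for 6 h or 12 h with 5-FdU-Ecyd at 1 µM, or as controls in drug-free medium for which no vehicle is named, which makes 8 groups of 3 libraries. Each line stands for 1 culture history, so that a difference between A2780cis and A2780 cannot be told apart from other differences between the lines.

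Thymidylate is a building block of DNA, and thymidylate synthase (TYMS) makes it from dUMP with a methyl group carried by reduced folate. FdU is phosphorylated to FdUMP, which traps the enzyme in a complex with the folate cofactor, and thymidine kinases provide a salvage route that bypasses it. dUTPase (DUT) limits dUTP, thymidylate kinase (DTYMK) adds the next phosphate to dTMP, SHMT1 loads the folate carrier with its carbon unit, SLC19A1 brings reduced folate into the cell, and TYMP and DPYD break down thymidine and uracil bases, fluoropyrimidines included.

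The genes lie on 9 places of the genome (GRCh38, GENCODE release 44). TYMS (ENSG00000176890.15) spans chr18:657653-673578 on the + strand and DUT (ENSG00000128951.13) chr15:48331011-48343373 on the + strand. On the - strand are TK1 (ENSG00000167900.11, chr17:78174091-78187233), TK2 (ENSG00000166548.15, chr16:66508003-66552544), DTYMK (ENSG00000168393.12, chr2:241675747-241686944), SHMT1 (ENSG00000176974.18, chr17:18327860-18363563) and TYMP (ENSG00000025708.13, chr22:50525752-50530032). DPYD (ENSG00000188641.12, chr1:97077743-97995000) and SLC19A1 (ENSG00000173638.18, chr21:45493572-45573365) are also on the - strand. All 9 are protein-coding, and their counts are over exons.

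Start sites were matched by symbol in RefSeq (GRCh38.p14), where all 9 genes have at least 1. Below are the 250 bases upstream of 1 start site of TYMS, TK1, DUT and DTYMK, enzymes of DNA precursor synthesis whose transcripts took different courses under treatment. Capitals mark matches on either strand to the E2F core, searched as TTGGCGC and also as TTCCCGC, then as TTGCCGC and finally as TTCGCGC. E2F factors are known as regulators of S-phase genes.
TYMS, chr18:657403-657652, + strand: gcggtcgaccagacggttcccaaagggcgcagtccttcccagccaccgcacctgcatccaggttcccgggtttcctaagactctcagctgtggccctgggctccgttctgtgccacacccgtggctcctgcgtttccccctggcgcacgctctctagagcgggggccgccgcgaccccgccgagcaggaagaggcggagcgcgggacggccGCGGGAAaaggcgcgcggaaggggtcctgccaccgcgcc
TK1, chr17:78187053-78187302, - strand: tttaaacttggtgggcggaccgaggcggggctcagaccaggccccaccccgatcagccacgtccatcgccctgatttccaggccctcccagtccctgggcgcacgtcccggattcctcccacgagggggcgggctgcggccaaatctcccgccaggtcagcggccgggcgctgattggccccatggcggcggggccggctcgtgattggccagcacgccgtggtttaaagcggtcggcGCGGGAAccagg
DUT, chr15:48331947-48332196, + strand: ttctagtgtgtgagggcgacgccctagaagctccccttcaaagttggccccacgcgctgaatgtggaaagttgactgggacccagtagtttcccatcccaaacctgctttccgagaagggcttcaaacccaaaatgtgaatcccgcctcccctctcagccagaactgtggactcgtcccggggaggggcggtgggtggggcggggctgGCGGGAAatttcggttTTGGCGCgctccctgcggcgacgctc
DTYMK, chr2:241686816-241687065, - strand: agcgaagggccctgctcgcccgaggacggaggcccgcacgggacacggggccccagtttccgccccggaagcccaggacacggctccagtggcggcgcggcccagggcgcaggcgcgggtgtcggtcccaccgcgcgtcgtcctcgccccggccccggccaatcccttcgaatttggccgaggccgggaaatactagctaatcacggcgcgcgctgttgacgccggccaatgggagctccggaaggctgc

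TYMS and TK1 have 1 match each in these windows, DUT has 2 and DTYMK has none. TYMS and DTYMK have only the window shown, whereas for TK1 and DUT the window shown is the only one of 2 and of 4 with a match, so for these genes the match follows from the choice of window. Over all 35116 RefSeq windows of this length, 10.9% hold a match, and 6 of the 18 windows of the 9 genes do, those of a gene often sharing bases. The 6 windows belong to TYMS, TK1, DUT, DPYD and SLC19A1. The TK1 window also has 2 matches to the CCAAT box (CCAAT), held by 32% of all windows, and 2 to the GC box (GGGCGG), held by 42.6%. The TYMS window has neither. A TATA box (TATAAA) occurs in 10.7% of all windows, and only in the other TK1 window among the 18. These matches describe letters in a window and no binding was measured.

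The expected counts of a library, fractions included, summed to between 11077368 and 21901406. Levels are given as CPM, counts scaled to a common library size with TMM normalization, as mean ± SD of 3 libraries, and changes as log2 fold change (log2 FC) with its standard error (SE), from 1 model over all 24 libraries. A gene was called at a Benjamini-Hochberg adjusted p of at most 0.05 over all genes tested in edgeR's quasi-likelihood test. Errors cover counting and the spread between these triplicates, and no molecular identifiers were used. In RNA of a whole culture, less of a transcript per cell and fewer cells that hold it cannot be told apart. CPM is a share of the counts of a library, so rises and falls here are relative to the rest of it. The paper describes Ecyd as a potent inhibitor of RNA polymerase, and total RNA per cell was not measured in these data. Only the conjugate was given, so the effects of its FdU and Ecyd moieties cannot be told apart. The labelled tissue was checked by markers: PAX8, WT1, MUC16, CDH1, KRT7 and KRT19 had at most 6 counts in any library, and the summed list of 9 epithelial and ovarian carcinoma markers, carried mostly by KRT18 and KRT8, reached 2.09 to 6.52 CPM in A2780 and 25.1 to 35.8 CPM in A2780cis. Leukocyte and endothelial markers had at most 4 counts. All 5 fibroblast markers were detected, with COL3A1 at 194 to 2168 CPM, and their sum was 216 to 326 CPM in A2780 and 1325 to 2171 CPM in A2780cis.

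Levels were also expressed per kilobase of annotated exon, with the exons of all transcripts of a gene merged. On that scale TYMS was the most abundant of the 9 in untreated A2780 at 6 h, with 109 ± 8.02 CPM per kb. DUT followed with 25.6 ± 2.66, then DTYMK with 18.2 ± 1.87 and TK1 with 14.7 ± 3.30, whose ranges meet. SHMT1 reached 3.21 ± 0.197 CPM per kb, DPYD 2.57 ± 0.120, SLC19A1 1.45 ± 0.289 and TK2 1.32 ± 0.172, the last pair within their spread. TYMP, at 0.189 ± 0.0120 CPM per kb, was the lowest. Cytosolic thymidine kinase TK1 was above its mitochondrial counterpart TK2 on this scale, with exon lengths of 1845 and 10339 bases. In CPM alone their gap was smaller, at 27.2 ± 6.09 and 13.7 ± 1.78, and the order of the 9 means was the same. Lengths of the transcripts present were not measured.

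After 6 h of treatment in A2780, 5 of the 9 genes were called, 3 higher (TYMS, TK1, SHMT1) and 2 lower (DPYD, SLC19A1), where 29.4% of all tested genes were called, 16% higher and 13.4% lower. After 12 h, 8 of 9 were called, 5 higher and 3 lower, beside 54.8% of all genes (28.6% higher, 26.1% lower), and DUT was the exception. In A2780cis, 2 of 9 were called at 6 h (TK1 higher, SLC19A1 lower), beside 30.7% of all genes (14.4% higher, 16.3% lower), and 4 of 9 at 12 h, beside 59.9% (31.0% higher, 28.9% lower). Those 4 were TK1 and TYMP, which were higher, and DTYMK and SLC19A1, which were lower. With scaling by library size alone, 3 were higher and 2 lower there. DPYD is counted among the 9, although it had at most 3 counts in any A2780cis library and no change could be measured in that line. The median log2 FC of the 9 was 0.15 and 0.41 in A2780 at 6 h and 12 h, against 0.04 and 0.02 over all genes, and -0.05 and 0.09 in A2780cis, against 0.00032 and 0.04, with the fitted value of DPYD counted in although it was at the floor there. Changes of at least 1 in log2 FC were those of TK1 and SLC19A1 in A2780 at 6 h, of DPYD and SLC19A1 in A2780 at 12 h, of SLC19A1 in A2780cis at 6 h and of SLC19A1 and TYMP in A2780cis at 12 h. Among all genes, 6.17%, 19.9%, 7.28% and 23.5% were called with a change of this size in these comparisons.

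**Figure D1:**
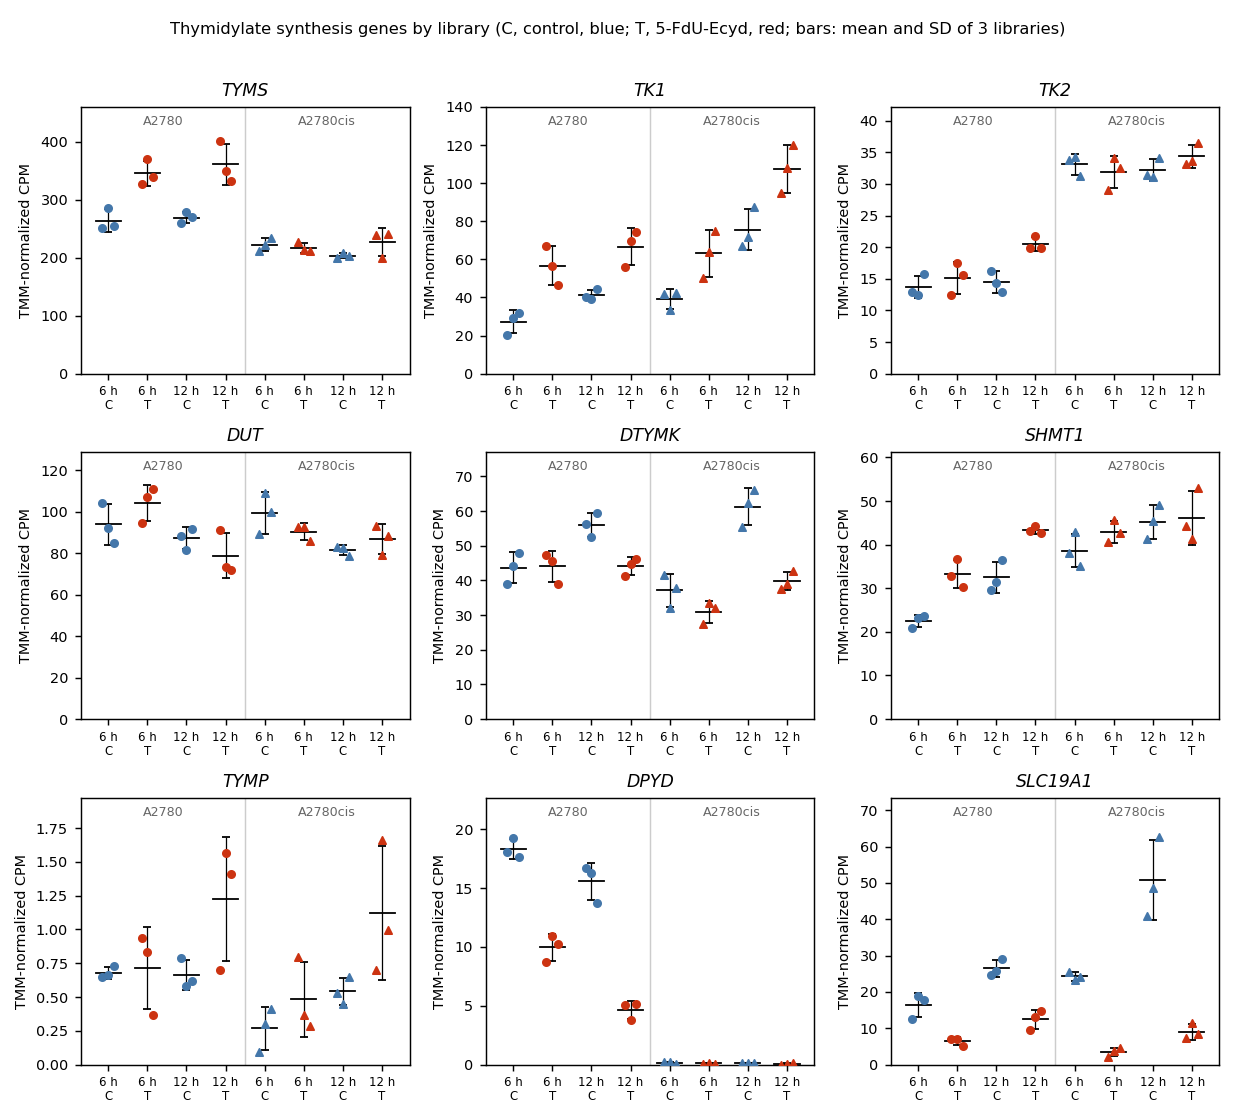
TMM-normalized CPM of the 9 genes in each of the 24 libraries, with 1 panel per gene and its own linear axis from 0. Circles are A2780 and triangles A2780cis libraries, blue is control and red 5-FdU-Ecyd, and bars give the mean and SD of 3 libraries; DPYD lies at the bottom of its panel in all 12 A2780cis libraries.

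TYMS, the enzyme that FdU is aimed at, rose in A2780 and was not called in A2780cis. In A2780 at 6 h its level was 252, 287 and 254 CPM in the controls and 327, 370 and 340 CPM after treatment. At 12 h the controls had 260, 278 and 270 CPM and the treated libraries 401, 350 and 333 CPM. Every treated A2780 library lay above every control of its time, a 1.31-fold difference at 6 h (log2 FC = 0.39, SE 0.09, adjusted p = 0.00207) and a 1.34-fold difference at 12 h (log2 FC = 0.42, SE 0.09, adjusted p = 0.000274). In A2780cis at 6 h the controls had 211, 223 and 234 CPM and the treated libraries 227, 213 and 212 CPM. At 12 h the values were 200, 208 and 203 CPM without and 240, 199 and 241 CPM with treatment. The groups overlapped at both times, with a log2 FC of -0.03 at 6 h (95% interval -0.22 to 0.15) and of 0.15 at 12 h (-0.03 to 0.34, adjusted p = 0.141). The 12 h comparison was called with scaling by library size alone (log2 FC = 0.26, adjusted p = 0.00164) and without replicate 2 of its treated libraries (log2 FC = 0.24, adjusted p = 0.0271).

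The difference between the lines in the TYMS response was itself tested. The change in A2780cis minus that in A2780 was -0.42 at 6 h (SE 0.13, adjusted p = 0.0693) and -0.27 at 12 h (SE 0.13, adjusted p = 0.129), neither past the threshold. The 6 h difference was called with scaling by library size alone (adjusted p = 0.0205), with the DESeq2 Wald test (adjusted p = 0.0244) and without replicate 2 of the A2780 controls (adjusted p = 0.0472), and the 12 h difference with scaling by library size alone (adjusted p = 0.00335). Ordered by level, the 8 groups ran from treated A2780 at 12 h (361 ± 35.6 CPM) and 6 h (345 ± 21.9 CPM), through the A2780 controls (269 ± 9.12 CPM at 12 h and 264 ± 19.4 CPM at 6 h), to the 4 A2780cis groups between 227 ± 24 and 204 ± 3.93 CPM. The treated pair and the control pair of A2780 each lay within their spread. Among the A2780cis groups, treated cells of 6 h (217 ± 8.27 CPM) and controls of 12 h (204 ± 3.93 CPM) did not overlap, while the other neighbours in that order did.

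TYMS shares 39.9% of its exon bases with ENOSF1 and 8.0% with TYMSOS, both on the opposite strand, and the setting for strand in the counting was not given in the sources used here. ENOSF1 changed from 171 ± 3.57 to 200 ± 11.9 CPM at 6 h and from 171 ± 2.13 to 212 ± 11.7 CPM at 12 h in A2780 (log2 FC = 0.22 and 0.31, adjusted p = 0.0263 and 0.00104). In A2780cis its log2 FC was 0.13 at 6 h (adjusted p = 0.204) and 0.26 at 12 h (adjusted p = 0.00415). TYMSOS was called higher in A2780 at 6 h (log2 FC = 0.65, adjusted p = 0.0172) and in A2780cis at 12 h (0.52, adjusted p = 0.0162), and had a log2 FC of 0.01 in A2780 at 12 h and 0.17 in A2780cis at 6 h. The part of these shared bases in the TYMS values was not tested. Counts of TYMS were not whole in 11 of 24 libraries. Fractions could come from reads with several alignments or from reads over several genes, which were not told apart.

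**Figure D2:**
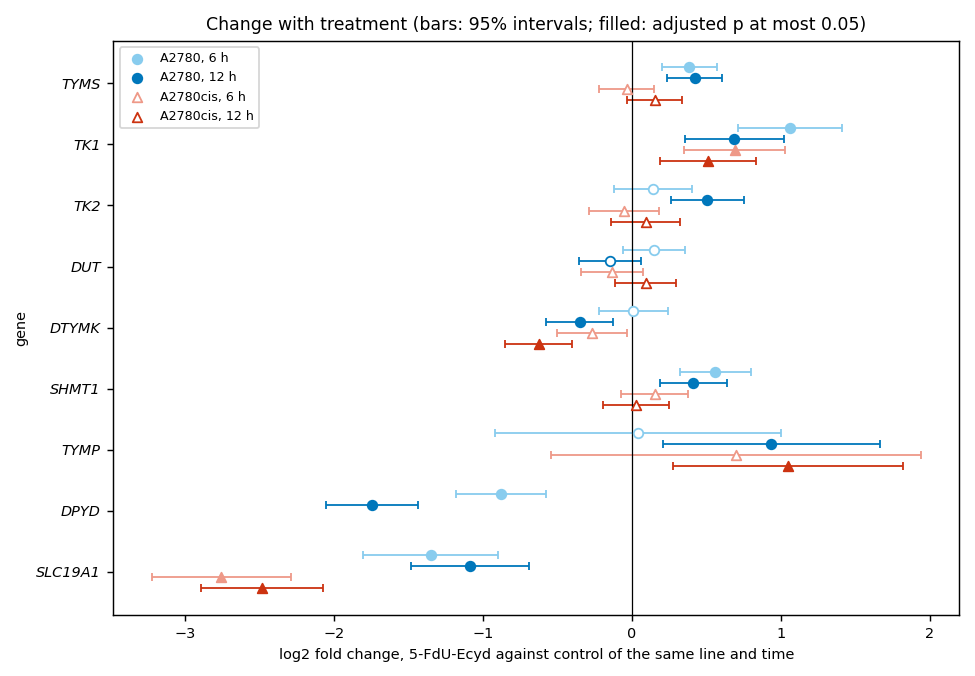
Log2 FC of each gene after 5-FdU-Ecyd against the control of the same line and time, with 95% intervals, for A2780 (blue circles) and A2780cis (red triangles) at 6 h (pale) and 12 h (dark). Filled symbols are called; SLC19A1 is left of 0 in all 4 comparisons, TK1 is right of 0 in all 4, and DPYD in A2780cis is left out because both groups are at the floor.

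SLC19A1, the reduced folate carrier, which also takes up antifolate drugs such as methotrexate, fell in all 4 treatment comparisons. In A2780 it went from 12.6, 18.7 and 17.6 CPM to 7.08, 6.94 and 5.18 CPM at 6 h, and from 24.8, 25.7 and 29.1 CPM to 9.39, 13.1 and 14.7 CPM at 12 h. In A2780cis it went from 25.5, 23.2 and 24 CPM to 2.15, 3.80 and 4.48 CPM at 6 h, and from 40.8, 48.7 and 62.6 CPM to 7.18, 11.4 and 8.54 CPM at 12 h. No treated library reached a control library of its line and time. The log2 FC was -1.35 (SE 0.22, adjusted p = 5.61e-05) and -1.09 (SE 0.19, adjusted p = 3.23e-05) in A2780, and -2.76 (SE 0.23, adjusted p = 1.44e-09) and -2.48 (SE 0.20, adjusted p = 7.4e-11) in A2780cis. Controls were thus 2.55-fold and 2.12-fold higher than treated cells in A2780 and 6.76-fold and 5.59-fold higher in A2780cis. Of all genes tested, 0.242% had a lower log2 FC in A2780cis at 6 h.

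SLC19A1 was the only one of the 9 called in the test of the difference in response between the lines. Of all genes, 3.07% were called there at 6 h and 23.7% at 12 h. The DESeq2 Wald test also called TYMS at 6 h (adjusted p = 0.0244), and TK2 (0.0329) and SHMT1 (0.0453) at 12 h. DPYD, with at most 3 counts in any A2780cis library, could not be assessed for this difference. The log2 FC of SLC19A1 in A2780cis minus that in A2780 was -1.41 at 6 h (SE 0.32, adjusted p = 0.0121) and -1.40 at 12 h (SE 0.27, adjusted p = 0.000658). The untreated levels of SLC19A1 also differed, with A2780cis above A2780. After treatment the A2780cis libraries held 3.48 ± 1.19 CPM of it at 6 h and 9.03 ± 2.14 CPM at 12 h, against 6.40 ± 1.06 and 12.4 ± 2.72 CPM in A2780. SLC19A1 shares 13.9% of its exon bases with COL18A1 on the opposite strand. COL18A1 had a log2 FC of -0.96 in A2780cis at 12 h (adjusted p = 0.000765), -0.41 in A2780cis at 6 h, and 0.57 and 0.41 in A2780 at 6 h and 12 h, these 3 not called. COL18A1 also differed in response between the lines, by -1.37 at 12 h (adjusted p = 0.00368) and by -0.98 at 6 h (adjusted p = 0.211, not called). Its part in the SLC19A1 values was not tested.

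SHMT1, the cytosolic serine hydroxymethyltransferase that makes the folate cofactor of TYMS, rose in A2780 from 21.0, 23.1 and 23.6 CPM to 32.7, 36.7 and 30.3 CPM at 6 h. At 12 h it rose from 29.6, 31.4 and 36.4 CPM to 43.2, 44.2 and 42.6 CPM. The groups did not overlap at either time (log2 FC = 0.56, SE 0.12, adjusted p = 0.000651, and log2 FC = 0.41, SE 0.11, adjusted p = 0.00228). In A2780cis the controls had 38.7 ± 3.87 CPM at 6 h and 45.3 ± 3.90 CPM at 12 h and the treated cells 42.9 ± 2.47 and 46.2 ± 6.15 CPM, with overlap at both times (log2 FC = 0.15, 95% interval -0.07 to 0.38, and 0.03, -0.19 to 0.25). The difference between the lines was -0.41 at 6 h (adjusted p = 0.183) and -0.39 at 12 h (adjusted p = 0.0686). At 12 h it was called with scaling by library size alone (adjusted p = 0.0181), with the DESeq2 Wald test (adjusted p = 0.0453) and without any 1 of 3 libraries (adjusted p = 0.0211 to 0.0452), namely A2780 control replicate 3, A2780cis control replicate 1 and A2780cis treated replicate 3. SMCR8, which shares 2.81% of the exon bases of SHMT1 on the opposite strand, was not called in any treatment comparison.

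Of the salvage enzymes, TK1, the cytosolic thymidine kinase of dividing cells, rose in all 4 comparisons. In A2780 at 6 h it went from 20.3, 29.3 and 31.9 CPM to 67.1, 56.5 and 46.5 CPM, and at 12 h from 40.3, 39.4 and 44.3 CPM to 55.8, 69.6 and 74.4 CPM. In A2780cis it went from 41.9, 33.2 and 42.4 CPM to 50.4, 64.0 and 75.1 CPM at 6 h, and from 67.2, 71.6 and 87.7 CPM to 94.8, 108 and 120 CPM at 12 h. All treated libraries lay above the controls of their line and time. The fold difference was 2.09 at 6 h and 1.61 at 12 h in A2780 (log2 FC = 1.07 and 0.69, SE 0.17 and 0.16, adjusted p = 3.91e-05 and 0.000743), and 1.62 and 1.42 in A2780cis (log2 FC = 0.69 and 0.51, SE 0.16 and 0.16, adjusted p = 0.0023 and 0.00685). The call at 12 h in A2780cis was lost without replicate 3 of its treated libraries (log2 FC = 0.39, adjusted p = 0.0596). The difference in response between the lines was -0.37 at 6 h (95% interval -0.86 to 0.11) and -0.18 at 12 h (-0.64 to 0.28).

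TK2, the mitochondrial thymidine kinase, had 16.3, 14.3 and 12.8 CPM in A2780 controls of 12 h and 19.9, 21.8 and 19.9 CPM after treatment, with no overlap (log2 FC = 0.51, SE 0.12, adjusted p = 0.000756). At 6 h the A2780 groups overlapped (13.7 ± 1.78 and 15.1 ± 2.59 CPM, log2 FC = 0.15, 95% interval -0.12 to 0.41). In A2780cis the level stayed between 31.9 ± 2.57 and 34.4 ± 1.81 CPM over the 4 groups, and neither comparison was called. The difference between the lines at 12 h was -0.41 (SE 0.16, adjusted p = 0.067), called with scaling by library size alone (adjusted p = 0.0234), with the DESeq2 Wald test (adjusted p = 0.0329) and without replicate 1 of the A2780 controls of 12 h (adjusted p = 0.0343). TK2 shares 10.7% of its exon bases with ENSG00000261519 and 4.94% with ENSG00000260755 on the opposite strand, and 4.42% with ENSG00000260851 on the same strand. In A2780 at 12 h, where TK2 was called, ENSG00000261519 rose from 0.418 ± 0.158 to 1.03 ± 0.293 CPM (log2 FC = 1.30, adjusted p = 0.00773) and ENSG00000260851 from 0.923 ± 0.0539 to 1.52 ± 0.235 CPM (log2 FC = 0.73, adjusted p = 0.015), and neither was called in A2780cis. ENSG00000260755 was not called in any treatment comparison. Their part in the TK2 values was not tested.

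TYMP, thymidine phosphorylase, which cleaves thymidine and can also activate or release fluoropyrimidine bases, was close to the limit of detection, with 1 to 32 counts per library. At 12 h the A2780 libraries had 12, 10 and 12 counts without and 10, 32 and 29.3 counts with treatment, and the groups overlapped. In A2780cis they had 11, 8 and 12 counts without and 11, 29 and 16 counts with treatment, and the groups did not overlap after scaling. Both comparisons were called (log2 FC = 0.94, SE 0.35, adjusted p = 0.0275, and log2 FC = 1.05, SE 0.37, adjusted p = 0.0179), and both calls were lost with the DESeq2 Wald test (adjusted p = 0.124 and 0.0803). In A2780 the call was also lost without any 1 of replicates 2 and 3 of either group (adjusted p = 0.0821 to 0.142), and in A2780cis without replicate 2 of either group (adjusted p = 0.0633 and 0.196). TYMP shares 10.0% of its exon bases with SCO2, not analysed here, and 8.97% with ODF3B, which had at most 15 counts in a library and means of 0.276 CPM without and 0.707 CPM with treatment in A2780cis at 12 h. The part of these in the TYMP values was not tested.

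Behind the synthase, DTYMK, which phosphorylates dTMP from both routes, was lower in both lines at 12 h. In A2780 it went from 56.2, 52.6 and 59.5 CPM to 41.3, 44.7 and 46.2 CPM, and in A2780cis from 55.4, 62.4 and 66.1 CPM to 37.6, 39.0 and 42.7 CPM. The groups did not overlap (log2 FC = -0.35, SE 0.11, adjusted p = 0.00885, and log2 FC = -0.62, SE 0.11, adjusted p = 2.5e-05). The A2780 call was lost with scaling by library size alone (log2 FC = -0.12, adjusted p = 0.387). At 6 h the log2 FC was 0.01 in A2780 (95% interval -0.22 to 0.24) and -0.26 in A2780cis (-0.50 to -0.03, adjusted p = 0.0801). The latter was called without replicate 2 of the A2780cis controls (log2 FC = -0.36, adjusted p = 0.0306).

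DUT, which hydrolyses dUTP to dUMP and so both protects DNA from uracil and feeds TYMS, was not called in any treatment comparison. Its level ranged from 71.9 to 111 CPM over all 12 A2780 libraries and from 78.6 to 109 CPM over all 12 A2780cis libraries, and the groups overlapped in every comparison. The log2 FC was 0.15 and -0.15 in A2780 at 6 h and 12 h and -0.14 and 0.09 in A2780cis, with 95% intervals that together ran from -0.35 to 0.36. Without replicate 1 of the treated A2780 libraries of 12 h, the decrease in that comparison was called (log2 FC = -0.28, adjusted p = 0.0292). DUT-AS1, which shares 14.5% of the exon bases of DUT on the opposite strand, was called higher in A2780 at 12 h (log2 FC = 0.42, adjusted p = 0.0293) and in A2780cis at both times (0.51 and 0.67, adjusted p = 0.046 and 0.000688), with means of 2.27 to 5.88 CPM. Its part in the DUT values was not tested.

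DPYD, dihydropyrimidine dehydrogenase, the first and rate-limiting enzyme of uracil, thymine and 5-fluorouracil breakdown, fell with treatment in A2780. It went from 18.1, 19.3 and 17.6 CPM to 8.70, 10.9 and 10.3 CPM at 6 h, and from 16.7, 16.3 and 13.8 CPM to 5.04, 3.76 and 5.15 CPM at 12 h. No treated library reached a control (log2 FC = -0.88, SE 0.15, adjusted p = 6.62e-05, and log2 FC = -1.75, SE 0.15, adjusted p = 3.89e-10). The decrease was larger at 12 h than at 6 h (difference of the log2 FC -0.87, SE 0.21, adjusted p = 0.00384), and DPYD was the only one of the 9 called in that test, in which 23.7% of all genes were. With scaling by library size alone, TK2 was called as well, with a larger change at 12 h (0.53, adjusted p = 0.0365). In A2780cis none of the 9 was called in edgeR's test of the same difference, where 24% of all genes were, and 1, DTYMK, had an unadjusted p under 0.05. The DESeq2 Wald test called 0 there as well. DPYD is counted in these 9 but could not be assessed in A2780cis, as given below.

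In A2780cis, DPYD was at the floor, which is reached when no library of a group exceeds 3 counts. The 12 A2780cis libraries held 0 to 3 counts each, whereas the 12 A2780 libraries held 72 to 281. Untreated A2780 was at least 66.8-fold higher than untreated A2780cis at 6 h and at least 98.4-fold higher at 12 h, with the floor set at 3 counts per library. After treatment the bound was 49.9-fold at 6 h and 25.4-fold at 12 h. No change with treatment could be measured in A2780cis at this depth.

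The tested genes next to DPYD on chromosome 1 were also looked at, a window chosen after values had been seen. SNX7 and FRRS1, the next tested protein-coding genes on 1 side, 0.667 and 1.71 Mb away, had at most 2 and 3 counts in all 12 A2780cis libraries, against 23.8 and 5.24 CPM in A2780 controls of 6 h and 23.5 and 5.67 CPM at 12 h. On the other side PTBP2, at -0.254 Mb, had 67.4 ± 6.04 CPM in A2780 and 12.6 ± 0.598 CPM in A2780cis at 6 h (log2 FC = -2.42, SE 0.14, adjusted p = 3.16e-14). MIR137HG, on the same strand, and DPYD-AS1, on the opposite one, share 6.93% and 1.53% of the exon bases of DPYD. In the A2780cis groups they had means of at most 0.0482 and of 0 CPM. In A2780, MIR137HG went from 15.8 ± 0.962 to 9.86 ± 1.02 CPM at 6 h, and from 11.7 ± 1.29 to 17.2 ± 1.7 CPM at 12 h, where DPYD fell. Of the 41 tested protein-coding genes within 5 Mb of DPYD, 38 were lower and 1, COL11A1, was higher in untreated A2780cis at 12 h, where 27.5% of all genes were called lower. Both the 41 and the 38 include DPYD itself, around which the window was drawn. DPYD, SNX7 and FRRS1 were the 3 of the 41 at the floor in all 12 A2780cis libraries. The list includes the read-through gene TLCD4-RWDD3, which shares exons with its neighbours, and no cause of this pattern was tested.

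**Figure D3:**
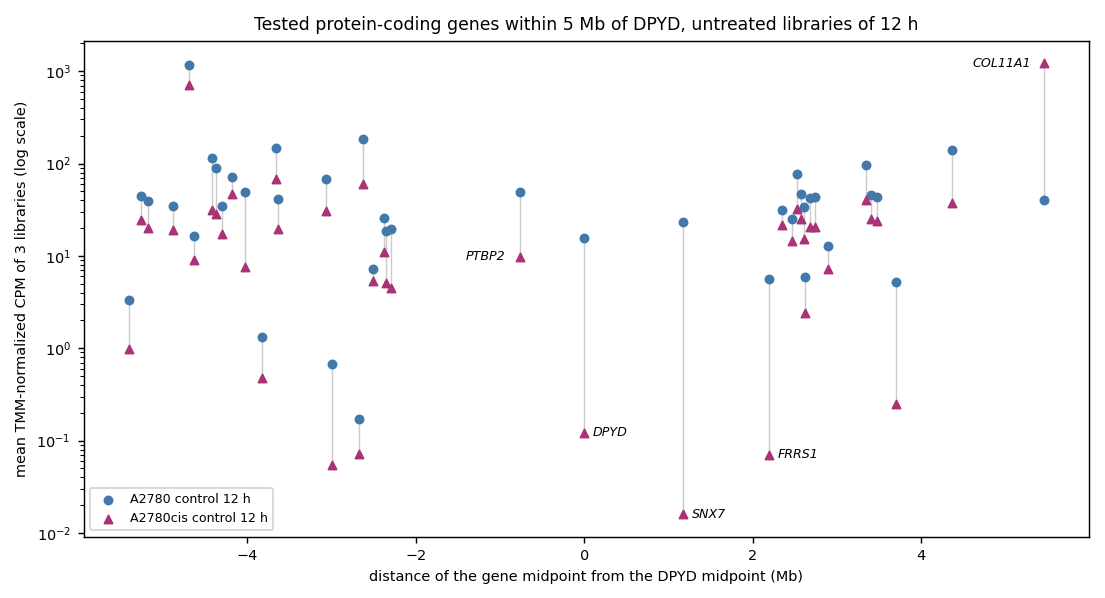
Mean TMM-normalized CPM (log scale) of the 41 tested protein-coding genes within 5 Mb of DPYD in untreated A2780 (circles) and A2780cis (triangles) at 12 h, against the distance of each gene's midpoint from that of DPYD in Mb. A grey line joins the levels of a gene; DPYD, SNX7 and FRRS1 drop furthest in A2780cis, and COL11A1 is the gene that is higher there.

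Without treatment, 6 of the 9 genes were called between the lines at 6 h and the same 6 at 12 h, beside 47.9% and 52.9% of all genes. TK2, SHMT1, TK1 and SLC19A1 were the 4 that were higher in A2780cis, beside 25% and 25.4% of all genes, and TYMS and DPYD the 2 that were lower, beside 22.9% and 27.5%. With scaling by library size alone, 2 were higher and 3 lower at 6 h. TK2 had 12.9, 12.5 and 15.7 CPM in A2780 and 33.8, 34.3 and 31.2 CPM in A2780cis at 6 h, with no overlap (log2 FC = 1.27, SE 0.12, adjusted p = 1.8e-09), and its log2 FC at 12 h was 1.16 (SE 0.12, adjusted p = 3.95e-09). Of the genes that share exon bases with TK2, ENSG00000260755 (log2 FC = 1.31 and 1.51 at 6 h and 12 h) and ENSG00000260851 (0.90 and 1.25) were also called higher in A2780cis. ENSG00000261519 was called higher at 12 h (1.32) and not called at 6 h (-0.28). The part of these genes in the TK2 difference was not tested. SHMT1 was higher by 0.78 (SE 0.12, adjusted p = 2.7e-06) at 6 h and 0.48 (SE 0.11, adjusted p = 0.000601) at 12 h on the log2 scale. DTYMK was not called at 6 h (log2 FC = -0.23, adjusted p = 0.0951), but was with DESeq2 size factors, library size alone, the compared samples alone and without replicate 1 of either control group (adjusted p = 0.0281 to 0.0498). These lines also differ in the marker sums given above, and the part of that difference here was not tested.

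TK1 was 1.45-fold higher in A2780cis at 6 h (log2 FC = 0.54, SE 0.17, adjusted p = 0.0116) and 1.83-fold at 12 h (log2 FC = 0.87, SE 0.16, adjusted p = 5.45e-05). SLC19A1 was 1.49-fold higher at 6 h (log2 FC = 0.58, SE 0.20, adjusted p = 0.0178) and 1.91-fold at 12 h (log2 FC = 0.93, SE 0.18, adjusted p = 0.000101). Both 6 h calls were lost with scaling by library size alone (adjusted p = 0.0622 and 0.0812) and without replicate 1 of the A2780 controls (adjusted p = 0.108 and 0.12). TK1 lost its call also without replicate 3 of the A2780cis controls (adjusted p = 0.0501), and SLC19A1 without replicate 1 of them (adjusted p = 0.0537). COL18A1, which shares exon bases with SLC19A1, was also called higher in untreated A2780cis, at 6 h (log2 FC = 0.81, adjusted p = 0.0247) and 12 h (1.25, adjusted p = 5.16e-05). The part of COL18A1 in the SLC19A1 difference was not tested. TYMS was lower in A2780cis, by 0.25 at 6 h (log2 FC = -0.25, SE 0.09, adjusted p = 0.0252) and by 0.40 at 12 h (log2 FC = -0.40, SE 0.09, adjusted p = 0.00047). Its 6 h call was lost without a filter on low counts (adjusted p = 0.0649) and without any 1 of A2780 control replicate 2 and A2780cis control replicates 1 and 2 (adjusted p = 0.0514 to 0.136).

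Part of the 9 also moved with time in culture without drug, beside 26.9% of all genes in A2780 (16.6% higher, 10.3% lower) and 39.9% in A2780cis (18% higher, 21.9% lower). Per the methods, control flasks also received fresh medium at the start. Time in culture and time since the medium change therefore cannot be told apart. In untreated A2780, 4 of 9 were called, all higher at 12 h than at 6 h: SLC19A1 (log2 FC = 0.71, SE 0.19), TK1 (0.61, SE 0.17), SHMT1 (0.53, SE 0.11) and DTYMK (0.36, SE 0.11). In untreated A2780cis, SLC19A1 (log2 FC = 1.06, SE 0.19), TK1 (0.94, SE 0.16) and DTYMK (0.72, SE 0.11) were higher at 12 h, and DUT was lower (log2 FC = -0.29, SE 0.10, adjusted p = 0.0261). With scaling by library size alone, 4 were higher and none lower. With the same time course, TYMS had a log2 FC of 0.03 in A2780 (95% interval -0.16 to 0.21) and -0.13 in A2780cis (-0.31 to 0.06). In A2780, TK1, DTYMK and SLC19A1 lost their calls without replicate 1 of the 6 h controls or replicate 3 of the 12 h controls, which left 1 of 9 called at the lowest. The DUT call in A2780cis was lost with scaling by library size alone, without a filter, with the compared samples alone, and without any 1 of 4 libraries (adjusted p = 0.0569 to 0.353 over these settings), namely replicates 2 and 3 of the controls of either time. COL18A1, which shares exon bases with SLC19A1, had means of 4.29 CPM at 6 h and 10.4 CPM at 12 h in untreated A2780. In untreated A2780cis its means were 7.45 and 24.9 CPM, and the part of COL18A1 in the SLC19A1 change with time was not tested. Every treatment comparison above was made against controls of the same time.

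Other genes of the pathway were taken from lists by role. Of 17 folate cycle genes, 16 were tested, and at 12 h 5 rose and 8 fell in A2780 and 5 rose and 7 fell in A2780cis, beside 28.6% higher and 26.1% lower of all genes in A2780 and 31.0% and 28.9% in A2780cis. The median log2 FC of the list was -0.30 and -0.09, against 0.02 and 0.04 over all genes. SHMT2, the mitochondrial counterpart of SHMT1, had a log2 FC of -0.23 and -0.07 at 12 h, not called, and of 0.36 and 0.30 at 6 h (adjusted p = 0.0197 and 0.0449). AMT, a part of the glycine cleavage system, had the largest log2 FC of the list in both lines (1.37 and 1.55) and MTHFD1L, a mitochondrial formyltetrahydrofolate synthetase, the smallest (-1.18 and -1.33). GLDC, also of the glycine cleavage system and singled out after its values were seen, rose in A2780 (log2 FC = 0.34, SE 0.09) and fell in A2780cis (log2 FC = -0.68, SE 0.09), a difference of -1.02 between the lines (SE 0.13, adjusted p = 2.64e-06).

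**Figure D4:**
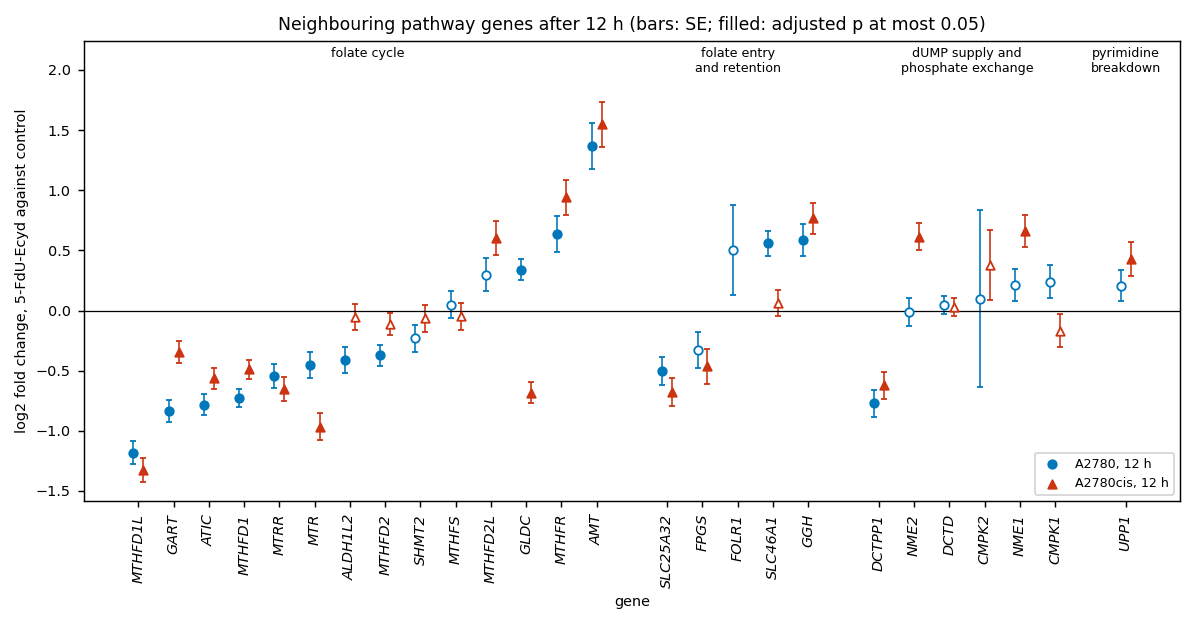
Log2 FC with SE at 12 h of tested genes of the folate cycle (not all are drawn), folate entry and retention, dUMP supply and phosphate exchange, and pyrimidine breakdown lists, in A2780 (blue circles) and A2780cis (red triangles). Filled symbols are called; AMT is highest and MTHFD1L lowest, and FOLR1 in A2780cis is left out because both groups are at the floor.

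Of 6 genes of folate entry and retention, 5 were tested, and 2 rose and 1 fell in A2780 at 12 h, while 1 rose and 2 fell in A2780cis. That is 3 of 5 in each line, near the 54.8% and 59.9% of all genes called at that time. GGH, which trims the glutamate tail that keeps folates in the cell, was called higher in both lines, at 48.7 ± 6.75 CPM after treatment against 32.5 ± 2.96 CPM in A2780 (log2 FC = 0.58) and 110 ± 16 against 64.5 ± 9.61 CPM in A2780cis (log2 FC = 0.77). SLC25A32, the mitochondrial folate transporter, fell in both (log2 FC = -0.50 and -0.68). The folate receptor FOLR1 was under 1 CPM on average in A2780 and at the floor in A2780cis. Of 7 genes of dUMP supply and phosphate exchange, 6 were tested. At 12 h, 1 was called in A2780, which was lower, and 3 in A2780cis, of which 2 were higher and 1 lower, beside the same 54.8% and 59.9% of all genes. DCTPP1, a dCTP pyrophosphatase, was the lower one in both lines (log2 FC = -0.77 and -0.62). CMPK1, a pyrimidine monophosphate kinase, had a log2 FC of 0.24 in A2780 (adjusted p = 0.141) and -0.17 in A2780cis (adjusted p = 0.297), and NME1, a nucleoside diphosphate kinase, had a log2 FC of 0.21 in A2780 (adjusted p = 0.181) and rose in A2780cis (0.66, adjusted p = 0.000123). Of the 4 genes of pyrimidine breakdown around DPYD, 1 was tested, uridine phosphorylase UPP1, which rose in A2780cis at 12 h (log2 FC = 0.43, adjusted p = 0.0096).

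TYMS, TK1 and DUT are known as genes of S phase, and 20 other S-phase genes were counted beside them. At 6 h, 9 rose and 2 fell in A2780, beside 16% higher and 13.4% lower of all genes, and 2 rose and 4 fell in A2780cis, near the shares of all genes (14.4% and 16.3%). At 12 h, 5 rose and 9 fell in A2780 (28.6% and 26.1% of all genes), and 3 rose and 12 fell in A2780cis (31.0% and 28.9%). The median log2 FC of the list was 0.18 and -0.09 in A2780 at 6 h and 12 h and -0.01 and -0.41 in A2780cis, against 0.04, 0.02, 0.00032 and 0.04 over all genes. TK1 was thus called higher at 12 h in both lines while most of the list was called lower in A2780cis. The part of the cell cycle in the TYMS, TK1 and DUT values was not tested.

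The genes whose course over the 8 groups was most like each of the 9 were ranked by the root mean square difference of centred group means of log2 CPM among 12518 genes, as a description. For TYMS, whose group means span 0.82 on the log2 scale, these were ZNF286B, ARMCX7P, DYNLL2, ABHD18 and FAM53C, with differences of 0.0855 to 0.101. For TK1 they were SAC3D1 and HCN3 (0.137 and 0.139), for DTYMK ATG4B and MAN1B1 (0.0814 and 0.0872), and for SHMT1 SDC3 and SLC29A1 (0.0656 and 0.0833). ATP1B3 and ENSG00000170089 (0.0421 and 0.0532) were nearest to DUT, PAPSS2 and ENSG00000271984 (0.0816 and 0.0945) to TK2, and CCS and TRIOBP (0.146 and 0.171) to TYMP. The 2 genes with the widest courses had more distant neighbours: NBEA and SEMA6A for DPYD (0.197 and 0.363, with a span of 6.64) and BAIAP2 and MLLT1 for SLC19A1 (0.202 and 0.34, with a span of 3.86).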

How the data were processed

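Whole transcriptome libraries (TruSeq Stranded Total RNA kit, NextSeq500) of 8 groups of 3 were analysed from the table of expected counts deposited by the authors. Per the supplement and the labels, the authors trimmed reads with Trimmomatic, aligned them with STAR 2.5.2b to GRCh38.p7 and counted exons with featureCounts, with multi-mapped reads and reads over several genes admitted and counted as fractions. Whether the reads were single, as labelled, or paired, as in the methods, was not settled. The expected counts are not normalized, and the strand setting was not given in the sources used here.

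Here counts were rounded, and 20240 of 63299 genes passed filterByExpr of edgeR 4.0.16 (R 4.3.3; minimum count 10, minimum total 15). They were TMM-normalized and fitted with a quasi-likelihood model with 1 coefficient per group and no covariate (residual degrees of freedom 16). Every adjusted p is two-sided and from edgeR's quasi-likelihood test unless the DESeq2 1.42.0 Wald test is named, with Benjamini-Hochberg adjustment and a threshold of 0.05. In edgeR the adjustment was over all genes tested in the fit. DESeq2 was fitted to all genes with any count and adjusted after its own default filter, so over another set of genes. The SE was derived as absolute log2 FC over the root of F, and 95% intervals use the t distribution with the residual and prior degrees of freedom of edgeR. Symbols, coordinates and exon lengths are from GENCODE release 44, which lists 56948 of the IDs. Tables and plots were made in Python 3.11.15 (pandas 2.3.3, matplotlib 3.10.9). The procedure was tested on simulated data.

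The genes and the pathway lists were chosen with earlier results of these data known. Named are all 9 genes, genes that share their exons, SHMT2, the largest and smallest log2 FC per list at 12 h, the nearest genes by course, and, after values were seen, the neighbours of DPYD and GLDC. Some results of the folate cycle list are counted but not reported here by gene. Alternatives were DESeq2 size factors, library size alone, no filter, counts not rounded, a replicate block, fitting only the compared groups (compared samples alone), the Wald test of DESeq2, and each library left out. The labels call the groups triplicates, so that p-values measure the spread between these samples. Replicates of a group differed beyond counting noise.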

Additional observations from a re-analysis of the deposited data

Results flagged for a closer look

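SLC19A1 drew attention because its change with 5-FdU-Ecyd differed between the lines in the test of that difference: the log2 FC in A2780cis minus that in A2780 was -1.41 at 6 h and -1.40 at 12 h, with every treated library below every control of its group. DPYD did so because its decrease in A2780 differed between the times, by -0.87 on the log2 scale at 12 h against 6 h. For COL18A1, which shares exon bases with SLC19A1, the difference between the lines was -1.37 at 12 h (adjusted p = 0.00368) and -0.98 at 6 h (adjusted p = 0.211). What lies behind these differences was not tested.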

How the results depend on the processing

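Counts of called genes kept within 1.5 times the value reported in all 12 comparisons under DESeq2 size factors, unrounded counts, the compared samples alone and no filtering of genes. The test of the difference between the lines gave 2 called at 6 h with library size alone and 2 with the DESeq2 Wald test, in place of 1, and at 12 h 4 and 3 in place of 1. The test of the difference between the times in A2780 gave 2 with library size alone in place of 1. That scaling shifted the 12 h median log2 FC over all genes to 0.24 in A2780 (0.02 with TMM) and 0.15 in A2780cis (0.04 with TMM), and changes under it are relative to that shift. Without any 1 library the count after treatment in A2780 was 7 to 9 at 12 h and 5 at 6 h, in A2780cis 3 to 4 and 2 to 3, between untreated lines 6 at 12 h and 5 to 6 at 6 h, and with time in untreated cells 1 to 4 in A2780 and 3 to 4 in A2780cis. The difference between the lines gave 1 to 2 at both times, and that between the times 1 to 2 in A2780 and 0 to 1 in A2780cis.

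Log2 FC that changed sign were not called in any of these fits, and what moved them was not tested beyond the setting itself. With library size alone they were DUT in A2780 at 12 h (0.0713), TYMS (0.0623) and TK2 (0.0466) in A2780cis at 6 h, SHMT1 for the difference between times in A2780 (0.0089), DUT between untreated lines at 6 h (-0.0214), TYMP with time in untreated A2780 (0.0258), and TYMS (0.0451) and TK2 (0.132) with time in untreated A2780cis. With the compared samples alone they were TYMS in A2780cis at 6 h (0.0025), DUT between untreated lines at 6 h (-0.0114) and TK2 with time in untreated A2780cis (0.0423). Without a filter they were SHMT1 in A2780cis at 12 h (-0.0248) and TK2 with time in untreated A2780cis (0.0141). With DESeq2 size factors and with its Wald test they were DTYMK in A2780 at 6 h (-0.0273 and -0.0252) and TYMS with time in untreated A2780 (-0.0083 and -0.0029).

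Leaving out 1 library at a time gave ranges across 0 for DTYMK (-0.0687 to 0.0928) and TYMP (-0.221 to 0.386) in A2780 at 6 h, for TYMS (-0.0736 to 0.0020) and TK2 (-0.0997 to 0.0088) in A2780cis at 6 h and for SHMT1 in A2780cis at 12 h (-0.113 to 0.102). The same held for TYMP in the difference between the lines at 12 h (-0.302 to 0.343) and between the times in A2780cis (-0.141 to 0.834), for TYMS between the times in A2780 (-0.0445 to 0.103), and with time in untreated A2780 for TYMS (-0.0057 to 0.0910), TK2 (-0.0192 to 0.188) and TYMP (-0.182 to 0.0397).

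Whether the replicate numbers pair the samples was not settled. The deviations of libraries from their group means correlated between -0.25 and 0.31 for the same number and between -0.33 and 0.28 for different numbers. Deviations of 3 libraries from their own mean sum to 0, so these correlations cannot decide it. With the replicate number as a block no call changed, and the log2 FC of TYMS in A2780 at 6 h was 0.39 (adjusted p = 0.0025). Depth limited TYMP in both lines and DPYD in A2780cis.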
